A study of Mus musculus with 8 samples.

Results

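PPARα, the nuclear receptor encoded by Ppara, its coactivator gene Ppargc1a and 8 genes known to be induced on fasting were measured in mouse liver after delivery of AGXT. The 8 others were Pdk4, Fgf21, Angptl4, Vnn1, Acot1, Acot3, Creb3l3 and Cpt1b. These 10 genes were picked by symbol and Ensembl identifier out of 52636 genes and all 10 passed the filter on low counts that left 15248 genes for testing. The livers came from 8 male wild-type C57BL/6J mice, with 4 mice in each group and 1 library per mouse. AAV8-GFP mice (303, 311, 314 and 315) received an adeno-associated virus of serotype 8 carrying GFP, and AAV8-AGXT mice (308, 309, 316 and 319) received the same vector carrying human AGXT, the enzyme that turns glyoxylate into glycine. In both groups the hepatocyte-specific TBG promoter drove the transgene, injection was at 7 weeks of age, and a diet rich in fat, fructose and cholesterol that produces metabolic dysfunction-associated steatohepatitis (MASH) followed from 8 weeks of age for 24 weeks. All mice therefore shared the diet and a virus. The mice had free access to the diet, and neither a fast nor the hour of collection is stated in the sources used here.

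PPARα senses fatty acids and binds DNA as a heterodimer with RXR at direct repeats spaced by 1 base, called DR1. In a fasted liver it turns on the oxidation of fatty acids and ketone production, and with them a set of genes that are not oxidation enzymes: the hormone FGF21, the lipase inhibitor ANGPTL4, the kinase PDK4 that holds back the use of glucose, the pantetheinase VNN1, and thioesterases of the ACOT family. CREB3L3, also called CREBH, is a membrane-bound transcription factor of hepatocytes that is itself a PPARα target and acts with PPARα on Fgf21.

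RefSeq promoter windows, which run from 250 bases before a start site to 50 bases after it (GRCm38.p6), were at hand for 7 of the 10 genes and not for Angptl4, Vnn1 and Cpt1b. The stretches below lie before the start site and outside annotated exons. They are shown for Ppara and Creb3l3, the only members past the adjusted threshold of the edgeR test, and for Fgf21 and Acot1, whose levels are set side by side further on. Capitals mark motif matches, and all stretches read 5′ to 3′ on the gene's strand.
Ppara, chr15:85735714-85735775, plus strand: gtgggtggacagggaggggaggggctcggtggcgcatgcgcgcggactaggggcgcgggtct
Creb3l3, outer start, chr10:81098875-81099122, minus strand: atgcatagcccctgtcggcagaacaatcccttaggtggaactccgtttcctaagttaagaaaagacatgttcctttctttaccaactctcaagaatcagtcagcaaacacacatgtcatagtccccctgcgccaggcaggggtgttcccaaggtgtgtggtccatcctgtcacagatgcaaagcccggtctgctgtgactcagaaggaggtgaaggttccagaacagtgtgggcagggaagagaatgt
Creb3l3, inner start, chr10:81092658-81092806, minus strand: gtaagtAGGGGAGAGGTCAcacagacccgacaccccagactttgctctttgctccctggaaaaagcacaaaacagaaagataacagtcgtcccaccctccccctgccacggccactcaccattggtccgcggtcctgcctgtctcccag
Fgf21, chr7:45615491-45615740, minus strand: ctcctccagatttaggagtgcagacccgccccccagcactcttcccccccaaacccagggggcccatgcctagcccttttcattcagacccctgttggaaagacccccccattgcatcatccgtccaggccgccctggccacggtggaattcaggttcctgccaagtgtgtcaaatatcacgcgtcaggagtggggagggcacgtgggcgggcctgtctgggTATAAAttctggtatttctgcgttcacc
Acot1, chr12:84009252-84009489, plus strand: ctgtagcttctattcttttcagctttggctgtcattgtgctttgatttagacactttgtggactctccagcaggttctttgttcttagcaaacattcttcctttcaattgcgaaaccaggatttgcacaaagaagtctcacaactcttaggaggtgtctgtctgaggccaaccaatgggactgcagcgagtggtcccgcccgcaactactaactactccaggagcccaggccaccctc

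Both strands of the windows were searched. A gene was counted if any of its windows held the motif. The exact DR1, AGGTCANAGGTCA, was found in 0 of the 7 members and in 0.0481% of all 27025 genes with a window. With up to 2 mismatches it was found in 1 of the 7, Creb3l3, at position -209 from the inner start site and inside an intron of the longer transcripts, and in 4.4% of all these genes. The palindrome TGACGTCA bound by CREB proteins was found in 0 of the 7 and in 2.03% of all these genes. The letters TATAAA were found in Fgf21 alone of the 7, at position -28 from the start site, and in 15.7% of all these genes. The 300-base Ppara window was the richest in G and C of the 7 genes, at 74.7% with 30 CpG, whereas those of the other 6 lay between 45.7% and 60.7%. A match is a string of letters in this window only, and known response elements can lie further away.

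Ppara and Creb3l3 rose in AAV8-AGXT livers, whereas Fgf21, Pdk4 and Cpt1b had lower means that did not pass the test. Values are counts-per-million (CPM) with library sizes scaled by the TMM method, given as mean ± SD over 4 mice, and a call means an adjusted p under 0.05 in edgeR's quasi-likelihood test over all 15248 genes. By this rule 2 of the 10 genes were called higher and 0 lower, against 2.45% of all tested genes called higher and 1.90% called lower. Of the 10, 5 were higher and 0 lower at an unadjusted p under 0.05, and DESeq2 called 0 lower. No share of all genes was taken for unadjusted counts or for DESeq2's lower calls. Such counts, here and below, therefore have no background beside them. The groups did not overlap for 5 of the 10, Ppara, Ppargc1a, Vnn1, Acot1 and Creb3l3, all higher in AAV8-AGXT, against 8.93% of all tested genes apart in that direction and 7.63% apart in the other. The median log2 fold change was 0.58 over the 10 genes and 0.018 over all tested genes. The Wald test of DESeq2 called 4 of the 10 higher, adding Vnn1 and Acot1, against 6.29% of its tested genes. Ppara, Ppargc1a and several of the oxidation genes counted further on were named by the study from these same libraries, so their counts are not independent evidence of direction. The study reported these genes as significantly higher, Ppargc1a among them. It also measured a selection of them by quantitative PCR in larger groups of its mice, which are not part of the values here. No setting used here called Ppargc1a.

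**Figure D1:**
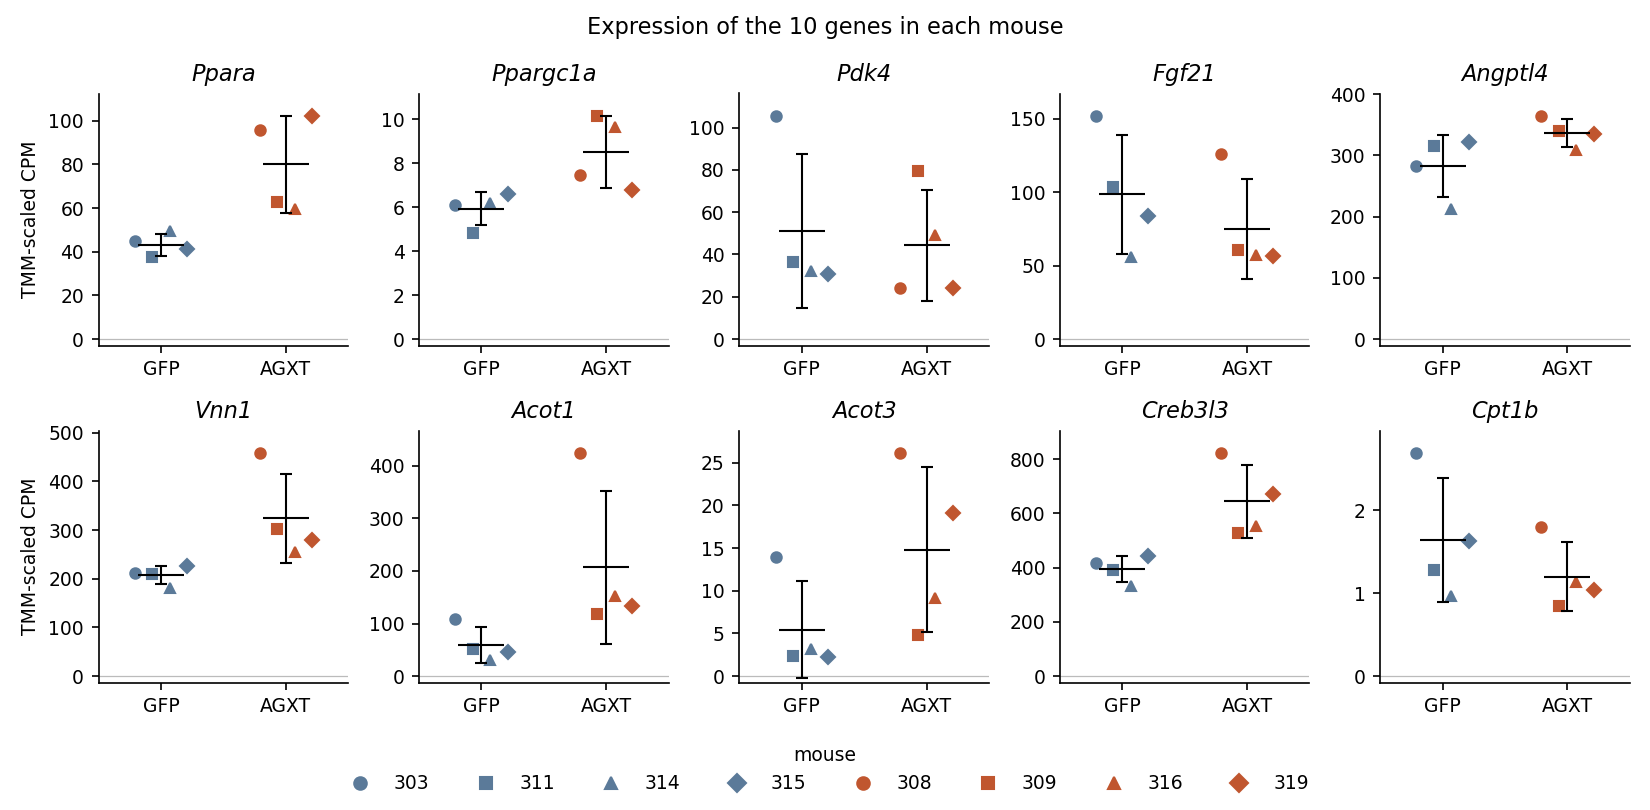
TMM-scaled CPM of the 10 genes in the 4 AAV8-GFP mice (blue) and the 4 AAV8-AGXT mice (red), with each panel on its own linear scale, bars at mean ± SD, and a marker shape that names a mouse and pairs no mice across groups. The groups are apart for Ppara, Ppargc1a, Vnn1, Acot1 and Creb3l3, and mice 303 and 308 stand above their groups for Fgf21, Acot1, Acot3 and Cpt1b.

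Several facts of the livers were compared between the groups. Of the sums of markers below, those of hepatocyte and clock genes lay apart (two-sided exact permutation test, p = 0.0286 each). The other sums overlapped. By the same test p was 0.0857 for stellate and fibroblast, 0.257 for macrophage, 0.0857 for cholangiocyte, 0.0571 for lymphocyte, 0.543 for endothelial and 0.229 for adipocyte markers. Read pairs counted on genes ran from 19747909 to 28780140 in AAV8-GFP and from 17095433 to 23940200 in AAV8-AGXT mice, and their share of tallied pairs from 63.3% to 69.1% and from 56.3% to 64.8% (two-sided exact permutation test, p = 0.171 and 0.0857), with the lowest share in mouse 308. All 11 tested hepatocyte markers had positive log2 fold changes, 2 were called higher (Hpd and Cps1), and their summed CPM ran from 57117 to 68882 in AAV8-GFP and from 69780 to 94416 in AAV8-AGXT mice. Of 10 stellate and fibroblast markers 9 were negative and 2 called lower (Acta2 and Timp1), with sums of 552 to 991 and 219 to 608 CPM, and of 10 macrophage markers 8 were negative and 0 called in edgeR (3 lower at an unadjusted p under 0.05 and 3 called lower by DESeq2), with sums of 665 to 1148 and 277 to 949 CPM. Cholangiocyte markers were negative in 6 of 6 (225 to 676 and 74.3 to 274 CPM) and lymphocyte markers in 6 of 7 (13.8 to 20.7 and 6.77 to 14.8 CPM), with 0 called in edgeR. At an unadjusted p under 0.05, 7 hepatocyte markers were higher, and 8 stellate and fibroblast, 5 cholangiocyte and 2 lymphocyte markers lower. DESeq2 called 6 hepatocyte markers higher, against 6.29% of its tested genes, and 3, 4 and 2 of the others lower. In these lists 0 went the other way by either count. Endothelial sums were 218 to 296 and 208 to 362 CPM, and those of 8 adipocyte markers 308 to 696 and 447 to 697 CPM. Of these 8, 3 were tested and Cfd was called higher. Of 16 clock genes 5 were called higher, led by Bhlhe41 and Hlf, and their sums ran from 345 to 610 and from 694 to 853 CPM without overlap, whereas Arntl, Npas2 and Cry1 lay apart in the other direction at -0.83, -1.46 and -0.56 (adjusted p = 0.0843, 0.0546 and 0.0814). Of the 16 clock genes 8 were higher and 3 lower at an unadjusted p under 0.05, as in DESeq2's calls. The 5 edgeR calls became 0 without mouse 311 or 319, 1 without 314, 2 without 303 and 3 without 308 or 316. Calls over all tested genes fell from 664 to 2, 14, 15, 193, 177 and 411 in these fits, in the same order. In bulk liver, fewer cells of a type and less RNA per cell cannot be told apart, and the part of these differences in the results below was not tested, save that with libraries scaled to the hepatocyte markers the median of all genes moved to -0.35, Ppara stayed called at 0.49 and Creb3l3, at 0.31, did not (edgeR adjusted p = 0.0409 and 0.104). Mouse Agxt was at 148.3, 179.9, 152.5 and 174.7 CPM in mice 303, 311, 314 and 315, and at 405.3, 201.5, 243.1 and 371.2 CPM in mice 308, 309, 316 and 319, apart and called higher (log2 fold change 0.90, adjusted p = 0.0489). That call held in 3 of 9 other settings and in 1 of 8 fits that each left out a mouse, the one without 309, with positive values throughout. The transgene was human, and whether its reads were counted on the mouse gene was not tested.

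Ppara (ENSMUSG00000022383, chr15:85734983-85802819, GRCm38) was at 44.7, 37.7, 49.5 and 41.3 CPM in AAV8-GFP mice 303, 311, 314 and 315. It was at 95.9, 62.8, 59.4 and 102.3 CPM in AAV8-AGXT mice 308, 309, 316 and 319. Mice 308 and 319 were high and mice 309 and 316 nearer to the controls, yet the lowest of them, 59.4 CPM, lay above the highest control, 49.5 CPM (exact permutation test, two-sided, p = 0.0286; 4 against 4 allow no smaller one). The same pair of mice, 308 and 319, had the highest Agxt CPM. The group means were 43.3 ± 5.06 and 80.1 ± 22.1 CPM (SD, n = 4 each). The fitted log2 fold change was 0.89 with a standard error of 0.19 and a 95% interval from 0.47 to 1.30 (edgeR adjusted p = 0.0376). The direction was the same whichever mouse was left out, between 0.75 and 1.01, but the call held only without mouse 309 or without mouse 316, and the adjusted p reached 0.143 without mouse 311. Calls over all tested genes fell from 664 to 2 without 311, 14 without 319 and 15 without 314. They were 177 without 308, 193 without 303 and 629 without 315, where Ppara was not called either.

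Of 21 partners and co-regulators of PPAR receptors, 0 were called in edgeR at a median log2 fold change of 0.093, and 15 were positive. At an unadjusted p under 0.05, 3 of the 21 were higher and 0 lower, and DESeq2 called 2 higher and 0 lower. Rxra, the main RXR partner in liver, had 352.3 ± 49.4 and 561.4 ± 106.4 CPM (SD, n = 4 each) and lay apart, with a log2 fold change of 0.67 just outside the threshold (edgeR adjusted p = 0.0502). Ppargc1b, the paralog of Ppargc1a, also lay apart at 2.48 ± 1.09 and 5.50 ± 0.91 CPM (SD, n = 4 each; log2 fold change 1.15, adjusted p = 0.0610). The other PPAR receptors overlapped between groups and had negative log2 fold changes, -0.23 for Ppard and -0.14 for Pparg (adjusted p = 0.218 and 0.655).

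Ppargc1a (ENSMUSG00000029167, chr5:51454250-51567726) encodes PGC-1α, the coactivator that fasting induces in liver. It was scarce, at 6.09, 4.84, 6.18 and 6.62 CPM in mice 303, 311, 314 and 315 and at 7.46, 10.2, 9.66 and 6.80 CPM in mice 308, 309, 316 and 319, on 108 to 188 counts per mouse. The groups lay apart by a narrow margin, 6.62 against 6.80 CPM. Its fitted log2 fold change was 0.52 with a standard error of 0.18 (edgeR adjusted p = 0.107), and no alternative called it. Mice 309 and 316, low for Ppara, were the highest for Ppargc1a.

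Creb3l3 (ENSMUSG00000035041, chr10:81084324-81098874) was at 417.2, 391.0, 333.0 and 443.2 CPM in the AAV8-GFP mice in the order above, and at 823.8, 529.1, 554.4 and 673.3 CPM in the AAV8-AGXT mice. The groups did not overlap, with mouse 308 highest and mouse 319 next, as for Ppara in the reverse order. Its means were 396.1 ± 47.1 and 645.2 ± 134.7 CPM (SD, n = 4 each), and the fit gave 0.70 on the log2 scale with a standard error of 0.17 and a 95% interval from 0.33 to 1.08 (edgeR adjusted p = 0.0486). When single mice were dropped in turn, the call held in 1 of 8 fits, the one without mouse 309, and the adjusted p reached 0.157 without mouse 311. In the fits that lost it, calls over all tested genes ran from 2 without 311 to 629 without 315. Among its relatives, Creb3l1, best known from cells that secrete collagen, fell from 9.49 ± 1.68 CPM to 4.28 ± 1.27 CPM (SD, n = 4 each), by 1.14 on the log2 scale (adjusted p = 0.0366; called in 4 of 8 fits with a mouse left out), while Creb3 and Creb3l2 had 0.28 and -0.28 (adjusted p = 0.254 and 0.624), and Creb3l4 was under the filter.

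**Figure D2:**
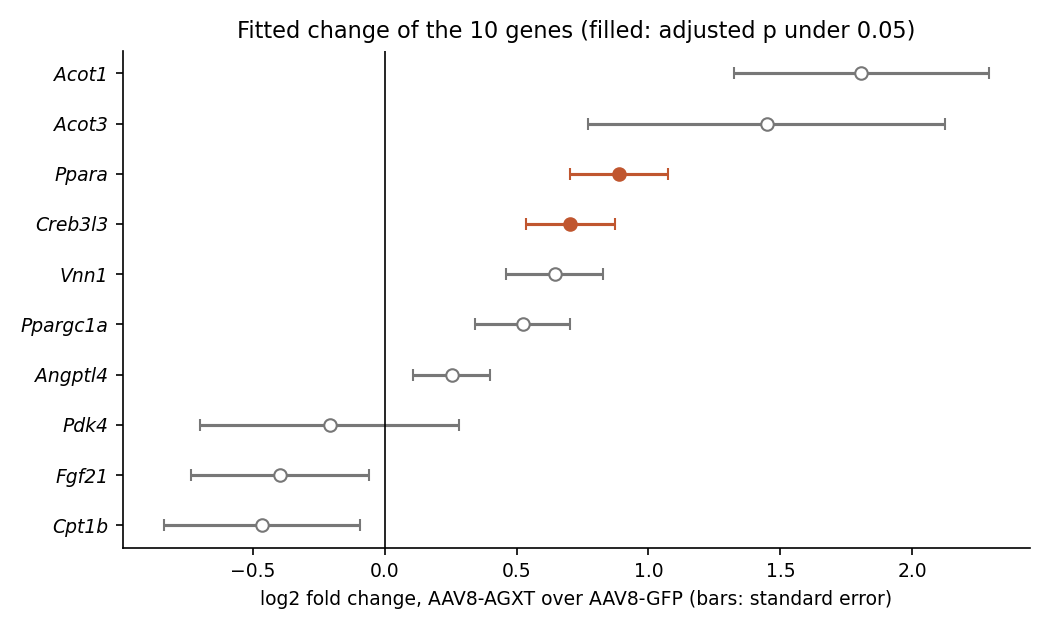
Fitted log2 fold change of each of the 10 genes, AAV8-AGXT over AAV8-GFP, with its standard error, filled where the edgeR adjusted p was under 0.05. Ppara (0.89) and Creb3l3 (0.70) are filled, Acot1 (1.81) and Acot3 (1.45) are larger with wider errors, and Pdk4, Fgf21 and Cpt1b lie below 0.

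Fgf21 (ENSMUSG00000030827, chr7:45613886-45615490) encodes the endocrine growth factor that liver releases on fasting and under metabolic stress. Its CPM were 152.0, 103.5, 55.9 and 83.4 in AAV8-GFP mice 303, 311, 314 and 315. In AAV8-AGXT mice 308, 309, 316 and 319 they were 126.3, 60.6, 56.9 and 56.8. The groups overlapped, and 3 of the 4 AAV8-AGXT mice sat together near the lowest control, while mouse 308 stood above 3 of the 4 controls. On the log2 scale the difference was -0.40 with a standard error of 0.34 and a 95% interval from -1.15 to 0.36 (edgeR adjusted p = 0.487). Without mouse 308 it was -0.78 and without mouse 303 it was -0.11 (edgeR adjusted p = 0.155 and 0.869), and no alternative called Fgf21. Its ratio to Ppara within livers, given below, did not pass (exact permutation test, adjusted p = 0.257). Klb, the co-receptor β-Klotho that FGF21 needs, rose from 8.95 ± 1.75 CPM to 16.3 ± 3.62 CPM (SD, n = 4 each), by 0.87 on the log2 scale (adjusted p = 0.0444), a call kept in 5 of 9 other settings and in 1 of 8 fits with a mouse left out, the one without 316. The receptors themselves had log2 fold changes of -0.30 for Fgfr1, -0.19 for Fgfr2, -0.22 for Fgfr3 and -0.016 for Fgfr4, with 0 of the 4 called by edgeR or DESeq2 or at an unadjusted p under 0.05.

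Angptl4 (ENSMUSG00000002289, chr17:33773750-33781830), an inhibitor of lipoprotein lipase, was at 283.1, 314.7, 211.7 and 321.5 CPM in AAV8-GFP and at 364.7, 339.4, 309.3 and 334.8 CPM in AAV8-AGXT mice. The groups overlapped only because mouse 316 fell below controls 311 and 315. The log2 fold change was 0.25 with a standard error of 0.15 and a 95% interval from -0.076 to 0.58 (edgeR adjusted p = 0.304), and scaling to the hepatocyte markers turned it to -0.12, against the median of -0.35 for all genes. Of 11 genes that act with it on plasma triglyceride, 2 were called higher, Apoa5 (log2 fold change 0.63, adjusted p = 0.0344), an activator of lipolysis, and the endothelial lipase Lipg (1.47, adjusted p = 0.0498). Without mouse 303, 308, 311, 314 or 319 the count was 0, and without 309, 315 or 316 it was 1. Calls over all tested genes fell from 664 to between 2 and 193 in the fits where it was 0. Lpl, the lipase that ANGPTL4 inhibits, is given here after its values were seen, at 220.0 ± 67.2 and 111.3 ± 41.2 CPM (SD, n = 4 each) with overlapping groups and a log2 fold change of -0.98 (edgeR adjusted p = 0.0756). DESeq2 called 3 of the 11 higher and 1 lower.

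Vnn1 (ENSMUSG00000037440, chr10:23894688-23905343) encodes vanin-1, which frees pantothenate, the vitamin from which coenzyme A is made. It was at 212.1, 210.1, 181.7 and 225.3 CPM in AAV8-GFP and at 458.6, 302.0, 255.3 and 280.4 CPM in AAV8-AGXT mice. The groups lay apart, with mouse 308 far above the others. The fit gave 0.64 on the log2 scale with a standard error of 0.18 (edgeR adjusted p = 0.0732), and 0.42 without mouse 308. DESeq2 alone called it (adjusted p = 0.0133). All 8 tested genes of pantothenate recycling and coenzyme A synthesis had positive log2 fold changes, at a median of 0.25, and 1 was called, the pantothenate kinase Pank1 at 0.81 (adjusted p = 0.0294; called in 4 of 8 fits with a mouse left out). With libraries scaled to total counts 5 of the 8 were positive, and scaled to the hepatocyte markers 1 was positive, 0 were called and the median was -0.10. These scalings moved the median of all tested genes to -0.22 and -0.35. Vnn3, the neighbour of Vnn1, lay apart at 0.29 (edgeR adjusted p = 0.107).

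Acot1 (ENSMUSG00000072949, chr12:84009490-84018371), the cytosolic acyl-CoA thioesterase, had the largest log2 fold change of the 10 genes. It was at 107.7, 51.4, 30.9 and 46.7 CPM in mice 303, 311, 314 and 315, and at 424.7, 118.4, 151.7 and 133.3 CPM in mice 308, 309, 316 and 319. Mouse 308 was far above its group and mouse 303 far above the controls, and the nearest values of the groups were 107.7 and 118.4 CPM. The log2 fold change was 1.81 with a standard error of 0.48 and a 95% interval from 0.73 to 2.88 (edgeR adjusted p = 0.0647), and 1.17 without mouse 308 (adjusted p = 0.113). DESeq2 called it (adjusted p = 0.0209), as did edgeR with no filter on low counts. Acot1 shares 15% of its 75-base windows with other genes, mostly Acot2, so its count is uncertain to that extent.

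Acot3 (ENSMUSG00000021228, chr12:84052144-84060402), a peroxisomal thioesterase in the same cluster of genes, was at 13.9, 2.30, 3.23 and 2.21 CPM in AAV8-GFP and at 26.2, 4.81, 9.19 and 19.2 CPM in AAV8-AGXT mice. Mouse 303 alone made the groups overlap. The log2 fold change was 1.45 with a standard error of 0.68 (edgeR adjusted p = 0.207), and 2.53 without mouse 303 (adjusted p = 0.0583). Its exons overlap other genes over 20.6% of their length and its windows are shared over 18.1%, so its count is uncertain. Of 9 other tested acyl-CoA thioesterases and relatives, 1 was called, the acetyl-CoA hydrolase Acot12 at 0.82 (adjusted p = 0.0198; called in 5 of 8 fits with a mouse left out). The neighbours in the cluster did not pass, with 0.28 for the mitochondrial Acot2 and 1.02 for the peroxisomal Acot4 (adjusted p = 0.685 and 0.0732), and Acot5 was under the filter.

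Pdk4 (ENSMUSG00000019577, chr6:5483351-5496309) encodes a kinase that inactivates pyruvate dehydrogenase. It was at 105.5, 36.3, 32.1 and 30.6 CPM in AAV8-GFP and at 24.2, 79.6, 49.3 and 23.9 CPM in AAV8-AGXT mice. The groups overlapped in both directions, and mice 308 and 319, highest for Ppara, were the lowest of all for Pdk4. The log2 fold change was -0.21 with a standard error of 0.49 and a 95% interval from -1.30 to 0.88 (edgeR adjusted p = 0.822), and without mouse 303 it turned to 0.42 (adjusted p = 0.543). Among 10 other genes of this complex, 1 was called, the activating phosphatase Pdp2, from 25.8 ± 7.06 CPM to 51.3 ± 5.56 CPM (SD, n = 4 each), or 0.99 on the log2 scale (adjusted p = 0.0303; called in 3 of 8 fits with a mouse left out). The other kinases had log2 fold changes of 0.27 for Pdk1, 0.34 for Pdk2 and -0.29 for Pdk3 (adjusted p = 0.152, 0.0835 and 0.741).

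Cpt1b (ENSMUSG00000078937, chr15:89416405-89425863), the muscle form of carnitine palmitoyltransferase 1, was barely detected, at 2.69, 1.29, 0.97 and 1.63 CPM in AAV8-GFP and at 1.79, 0.84, 1.13 and 1.04 CPM in AAV8-AGXT mice. These are 21 to 69 and 14 to 26 counts. The log2 fold change was -0.47 with a standard error of 0.37 (edgeR adjusted p = 0.453). Of the exon bases of Cpt1b, 81.4% lie under the readthrough gene Gm44502, which is not among the counted genes. Pairs of either gene over those bases could not be told apart in the counts. Of 10 skeletal muscle markers 1 passed the filter and 4 were at 0 in all mice, with sums of 1.66 to 3.03 and 1.32 to 2.45 CPM. The liver form Cpt1a, at 492.9 ± 74.6 and 818.3 ± 101.8 CPM (SD, n = 4 each), was called higher (log2 fold change 0.73, adjusted p = 0.0374), in 2 of 8 fits with a mouse left out as well, and the brain form Cpt1c had -0.78 (adjusted p = 0.140). Chkb, the neighbour of Cpt1b on chromosome 15, had 0.12 (adjusted p = 0.788).

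Levels are compared between genes per kilobase of exon. In AAV8-GFP mice the order was Creb3l3 at 131, Fgf21 at 104, Vnn1 at 85.8 and Angptl4 at 79.9 CPM per kb, then Acot1 at 15.1, Pdk4 at 14.6 and Ppara at 11.3, and last Acot3 at 1.58, Ppargc1a at 0.90 and Cpt1b at 0.49. Between neighbours in this order, only the steps from Angptl4 to Acot1 and from Ppara to Acot3 were free of overlap between mice. Creb3l3, at 110.4 CPM per kb or more, also lay above all values of Vnn1 and Angptl4, which reached 93.2 and 90.8. In AAV8-AGXT mice Fgf21 stood at place 4 with a mean of 79.0 CPM per kb, below Creb3l3 (214), Vnn1 (134) and Angptl4 (95.2). It ran there from 59.7 to 132.8 CPM per kb, overlapping Angptl4 (87.3 to 103.0) and Vnn1 (105.7 to 189.8). Acot1 (52.8) was free of overlap with Ppara (20.9). Vnn1 was above Angptl4 in 4 of 4 AAV8-AGXT and 3 of 4 AAV8-GFP mice.

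The level of each gene was also taken relative to Ppara in the same liver. Ppara itself was called higher, by 0.89 on the log2 scale. A gene that did not change therefore has a negative difference in this ratio, and a negative value alone shows no fall of the gene. The difference in the log2 ratio to Ppara, AAV8-AGXT minus AAV8-GFP, was -1.24 for Fgf21, -1.26 for Cpt1b, -1.03 for Pdk4 and -0.58 for Angptl4 (two-sided exact permutation test over mice, p = 0.0571, 0.0286, 0.257 and 0.114). It was -0.34 for Ppargc1a, -0.24 for Vnn1 and -0.16 for Creb3l3, and 0.90 for Acot1 and 0.80 for Acot3. Adjusted over the 9 ratios, none passed, with 0.257 the smallest adjusted p (exact permutation test). Only 1 ratio, that of the barely detected Cpt1b, had an unadjusted p under 0.05.

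Among the 4 AAV8-GFP mice, Fgf21 and Acot1 were both highest in mouse 303 and lowest in mouse 314. In AAV8-AGXT both were highest in mouse 308, but among mice 309, 316 and 319 the highest Fgf21, 60.6 CPM, went with the lowest Acot1, 118.4 CPM. After each group's mean was subtracted, Pearson's r of their log2 CPM was 0.97 and Spearman's rho 0.93 over 8 mice, and r was 0.85 over the 6 mice left without 308 and 303, the farthest on Fgf21. Cpt1b followed both, with r of 0.89 to Fgf21 and 0.94 to Acot1, and 0.51 and 0.79 without the same mice. Its values rest on 14 to 69 counts per mouse, and 81.4% of its exon bases lie under Gm44502. Vnn1 and Creb3l3 had r of 0.82, and 0.57 without mice 308 and 316. Ppara had r of 0.56 to Creb3l3 and 0.64 to Acot3, but 0.17 to Fgf21, -0.55 to Pdk4 and -0.61 to Ppargc1a. Among the genes whose pattern was most like that of Ppara were Nploc4 (r of 0.99), Atp9a (0.99), Helb (0.97) and Gm13552 (0.97). Of these, Nploc4 was also called higher (log2 fold change 0.66, edgeR adjusted p = 0.0387). They are the top of a search over the 15248 tested genes, so their high r was selected for. These coefficients describe 8 livers in which all genes share the same library and depth.

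**Figure D3:**
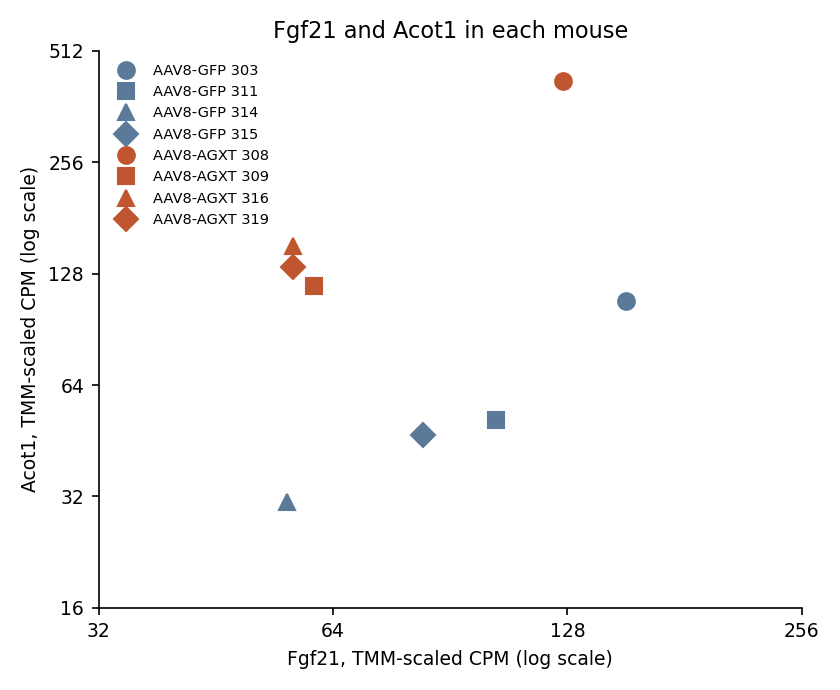
Fgf21 against Acot1 in each mouse, both as TMM-scaled CPM on log axes, with AAV8-GFP in blue and AAV8-AGXT in red. Mice 303 and 308 are highest in their groups on both axes, and the other AAV8-AGXT mice form a cluster between 56.8 and 60.6 CPM of Fgf21. Mouse 316, at 56.9 CPM of Fgf21, had 151.7 CPM of Acot1, whereas mouse 314, at 55.9 CPM of Fgf21, had 30.9.

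Other known PPARα targets gave a wider frame for the 10 genes. Of 25 targets in fatty acid oxidation and ketone production, 12 were called higher and 0 lower, 25 were positive, 23 lay apart, and the median log2 fold change was 0.67. The smallest p-values were those of Etfdh (0.72, adjusted p = 0.0278), which passes electrons from fatty acid oxidation to the respiratory chain, and the ω-hydroxylase Cyp4a14 (2.24, adjusted p = 0.0335), whose reads can be shared with close paralogs. The count of 12 fell to 3 without mouse 308, 7 without 303, 5 without 315 and 0 without 311, 314 or 319, with 25 of 25 positive in each. Calls over all tested genes fell from 664 to 177, 193, 629, 2, 15 and 14 in the same fits, in that order. With libraries scaled to the hepatocyte markers, 4 were called and 24 were positive, at a median of 0.28 against -0.35 for all genes. That scaling called 2785 of all 15248 tested genes, in either direction. DESeq2 called 23 of the 25 higher, and limma-voom and edgeR with no filter on low counts 16 each. Over all genes these settings called 2078, 682 and 846 in that order, in either direction. Of 29 tested targets outside oxidation, 6 were called higher and 0 lower, with 23 positive and a median of 0.54. At an unadjusted p under 0.05, 14 were higher and 3 lower, and DESeq2 called 11 higher and 2 lower. The 6 calls became 2 without mouse 308 and 0 without 311, 314 or 319. Scaling to the hepatocyte markers gave 3 higher and 3 lower at a median of 0.14, against -0.35 and the same 2785 calls for all genes. Acot12, named above, and the carnitine transporter Slc22a5 (1.17, adjusted p = 0.0309) had the smallest p-values. Genes of the fed state and of hormone response gave other counts. The 13 lipogenic genes of the fed state had a median of -0.13 with 0 called in edgeR, 4 lower and 0 higher at an unadjusted p under 0.05 and 4 called lower by DESeq2, and their median was -0.019 without mouse 308 and -0.40 without mouse 309. Of 15 genes of gluconeogenesis and hormone response 1 was called, the glucocorticoid target Fkbp5 at 1.37 (edgeR adjusted p = 0.0283, called in 5 of 8 fits with a mouse left out). The median of the 15 was 0.29, and 0.59 without mouse 315. With the hepatocyte scaling that median was -0.056, against -0.35 for all genes.

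**Figure D4:**
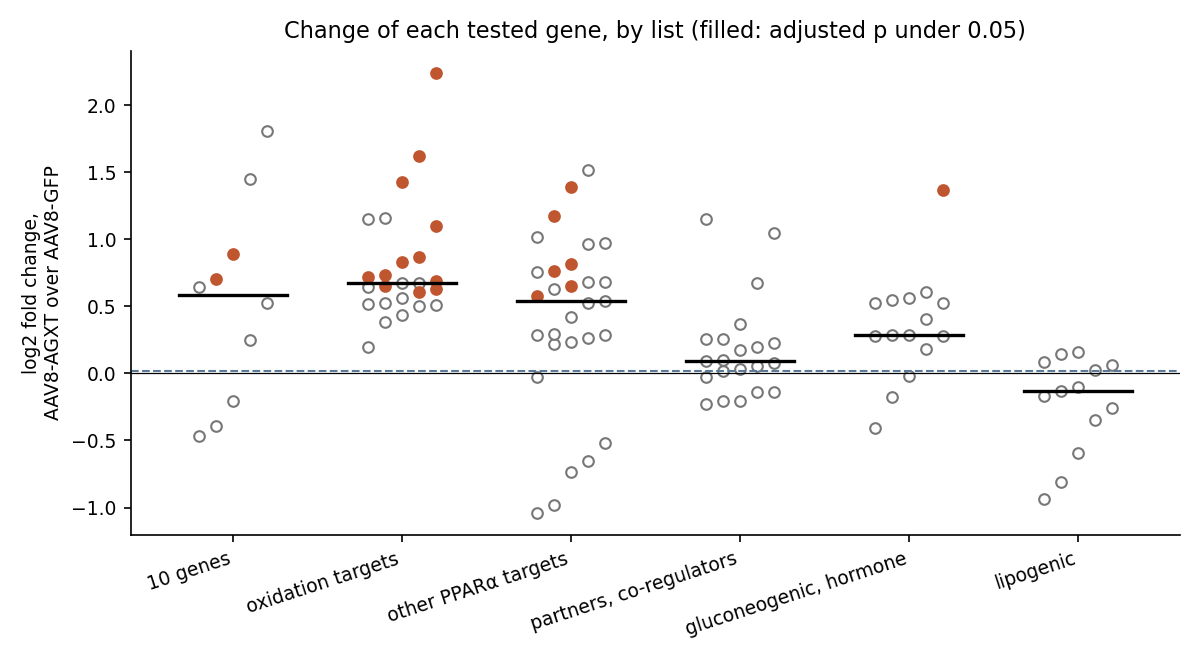
Log2 fold change of each tested gene, AAV8-AGXT over AAV8-GFP, for the 10 genes and 5 lists, with filled points for an edgeR adjusted p under 0.05, black bars at list medians and a dashed line at the median of all tested genes. Oxidation targets all lie above 0 with a median of 0.67, the 10 genes spread from -0.47 to 1.81 around 0.58, and lipogenic genes centre at -0.13.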

How the data were processed

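Liver mRNA libraries of 8 mice (4 AAV8-GFP, 4 AAV8-AGXT, grouped by the sample labels; 1 library per mouse) were analysed from the deposited raw counts. Per the submitters' notes and the methods, the authors trimmed read pairs with Trimmomatic 0.35, aligned them with HISAT2 2.1.0.13 to GRCm38 and counted them on genes with HTSeq; the strand option is not given in the sources used here. Separate animals give the replicates. HTSeq's tallies of pairs on no gene stayed out of library sizes and tests.

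Counts were filtered (filterByExpr), TMM-normalized and tested with the quasi-likelihood test of edgeR 4.0.16 in R 4.3.3, on treatment alone, and p-values were adjusted by Benjamini-Hochberg over 15248 genes; the procedure was tested on simulated data. Log2 fold changes used a prior count of 0.125, and standard errors and 95% intervals came from the unshrunken coefficient. The common biological coefficient of variation was 23.3%, so spread between mice, not depth, limited all but the scarcest genes. Positions are from GENCODE M21 (52489 of 52636 identifiers matched) and promoters from RefSeq. Alternatives were DESeq2 1.42.0, limma-voom (3.58.1), robust estimation, other size factors, other filters and each mouse left out. The 10 genes, the lists and the tests were chosen with earlier results of these data known. Named genes were the 10, their closest relatives, the called genes of each list (the 2 with the smallest p where more than 4 were called) and the 5 genes most like Ppara within groups. Some genes that this rule names are not reported here.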

Additional observations from a re-analysis of the deposited data

Results flagged for a closer look

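In 4 of the 20 groups of 4 mice checked (10 genes in 2 groups), 1 mouse stood far from the others by Dixon's test, where chance flags about 1 in 20. Acot1 in AAV8-AGXT mouse 308 was at 424.7 CPM against 118.4 to 151.7 CPM in the other mice of its group. Fgf21 in the same mouse was at 126.3 CPM against 56.8 to 60.6 CPM. Pdk4 in AAV8-GFP mouse 303 was at 105.5 CPM against 30.6 to 36.3 CPM, and Acot3 in that mouse was at 13.9 CPM against 2.21 to 3.23 CPM. Mouse 308 also had the lowest share of read pairs on genes, 56.3%, and the part of that in these values was not tested.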

How the results depend on the processing

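Of the 10 genes, DESeq2 called 4, and 1 was called with upper-quartile factors, with total counts, with hepatocyte marker size factors and with at least 10 counts in every mouse. That gene was Ppara in each of the last 4. With each mouse left out in turn, 0 to 2 were called, 2 without mouse 309 only, 1 without mouse 316 and 0 without each of the other mice. Over all genes, where the count was 664, DESeq2 called 2078, total counts 1001 and hepatocyte marker size factors 2785. Leaving out 1 mouse gave 2 without 311, 14 without 319 and 15 without 314, and up to 643 without 309. Total counts and hepatocyte marker size factors moved the median log2 fold change of all genes to -0.22 and -0.35. With single mice left out, Pdk4 ran from -0.67 to 0.42, turning sign without mouse 303 (0.42) and mouse 319 (0.002), and the sign turned for Angptl4 with hepatocyte marker size factors (-0.12). Ppara was called in 9 of 9 alternatives that kept all mice (adjusted p from 0.000943 to 0.0447) and Creb3l3 in 5 of 9 (0.00149 to 0.104). No alternative called Ppargc1a, Pdk4, Fgf21, Angptl4, Acot3 or Cpt1b. No paired analysis was possible because animal numbers are not shared between groups. The cause of these changes was not tested.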
